A study of Mus musculus with 2 samples.

Results

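The Rab genes encode small GTPases that label the membranes of the secretory and endocytic pathways. The members described here are the annotated protein-coding genes of the mouse whose symbol is Rab followed by a number, with or without a letter, and which had at least 1 read. This rule found 54 of 59 such genes in the annotation, among 18534 annotated genes with reads. RNA from left cerebral cortex was sequenced as long reads, which can show how the exons of 1 molecule were joined. The mice were B6CASTF1/J, 18 to 20 months old, a cross between C57BL/6J, the common laboratory strain, and CAST/EiJ, a strain derived from wild castaneus mice. There were 2 libraries of 1 group, labelled biological replicates 1 and 2, each from 2 µg of RNA and with the same donor entry. No treatment, genotype or time contrast was labelled, and the sex entry reads female where the free text of the same samples reads male. Nothing states that the replicates came from separate animals. Every test between them compares these libraries as sequenced and allows for counting error only. A difference that passes may come from the animals or from the handling of the samples, which cannot be told apart here.

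A Rab protein carries a lipid anchor and cycles between an active, GTP-bound form on membranes and an inactive, GDP-bound form in the cytosol. Exchange factors switch it on, GTPase-activating proteins switch it off, and the GDP dissociation inhibitor extracts it from membranes and returns it. Each active Rab recruits its own effectors, such as tethers, motors and fusion factors, and in neurons this steers synaptic vesicle release, receptor recycling and the transport of cargo along axons.

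Replicate 1 held 871524 reads and replicate 2 held 839150 reads, of which 774629 (88.9%) and 679147 (80.9%) lay on annotated genes. Levels are given as CPM, the reads of a gene scaled to the same total of annotated-gene reads in each library. Where a gene had 0 reads, its true level can be as high as 3 reads, which is 3.87 CPM in replicate 1 and 4.42 CPM in replicate 2, and all intervals and limits cover counting error only. Each long read was counted as 1 RNA molecule, so levels were not divided by length. Platform and filters were not given, and an effect of amplification or of transcript length on the levels was not tested. The median model length weighted by reads was 2159 nt in the Rab genes and 2184 nt in the other protein-coding genes. The tissue label was checked by markers: all 5 excitatory neuron markers were detected, at a summed 1519 CPM in replicate 1 and 1394 CPM in replicate 2. Astrocyte markers summed to 3261 and 3532 CPM, oligodendrocyte markers to 1855 and 1618 CPM, inhibitory neuron markers to 740 and 674 CPM, and microglial markers to 236 and 221 CPM. Aldoc, with 2370 and 2509 CPM, made up most of the astrocyte sum. The oligodendrocyte marker Mog had only 2 and 1 reads, and the microglial marker Cx3cr1 had 0 and 7 reads. Markers of the neighbouring striatum summed to 652 and 565 CPM, endothelial markers to 301 and 221 CPM and blood markers to 372 and 194 CPM. Most of the striatal sum came from Ppp1r1b (378 and 350 CPM) and Penk (231 and 194 CPM). The striatal markers Drd1 and Adora2a had 24 and 12 reads and 9 and 2 reads. Of 3 choroid plexus markers, Folr1 and Otx2 had 0 reads and the third had 23.2 and 7.36 CPM. In whole tissue, fewer cells of a type and less RNA per cell cannot be told apart, and the part of these cell types in the Rab levels was not tested.

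Rab genes took almost the same small part of both libraries. Their 6909 reads were 0.892% of the annotated-gene reads in replicate 1 (95% Wilson interval 0.871 to 0.913%, the method of all intervals here), and their 6028 reads were 0.888% in replicate 2 (0.866 to 0.910%). The mean was 0.890% ± 0.00306 (SD, n = 2). Detection, set at 10 reads over both libraries, was reached by 48 of the 54 members (88.9%), while 72.3% of all 14758 protein-coding genes with reads reached it. The median member had 93.5 reads in total and the median protein-coding gene 31 reads. These values describe the family and are no test of it.

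The 6 members under 10 reads were Rab27a and Rab37, which act in the secretion of granules, Rab32, a gene of melanosome traffic, Rab20, Rab39 and Rab7b. They had between 2 and 4 reads each over both libraries, at or under the limit for a count of 0, and their levels are not compared. The 5 annotated genes with 0 reads in both libraries were Rab17 and Rab25, known from epithelial cells, Rab38, a melanosome gene, Rab19 and Rab44. Their levels could still reach 3.87 and 4.42 CPM in replicates 1 and 2.

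**Figure D1:**
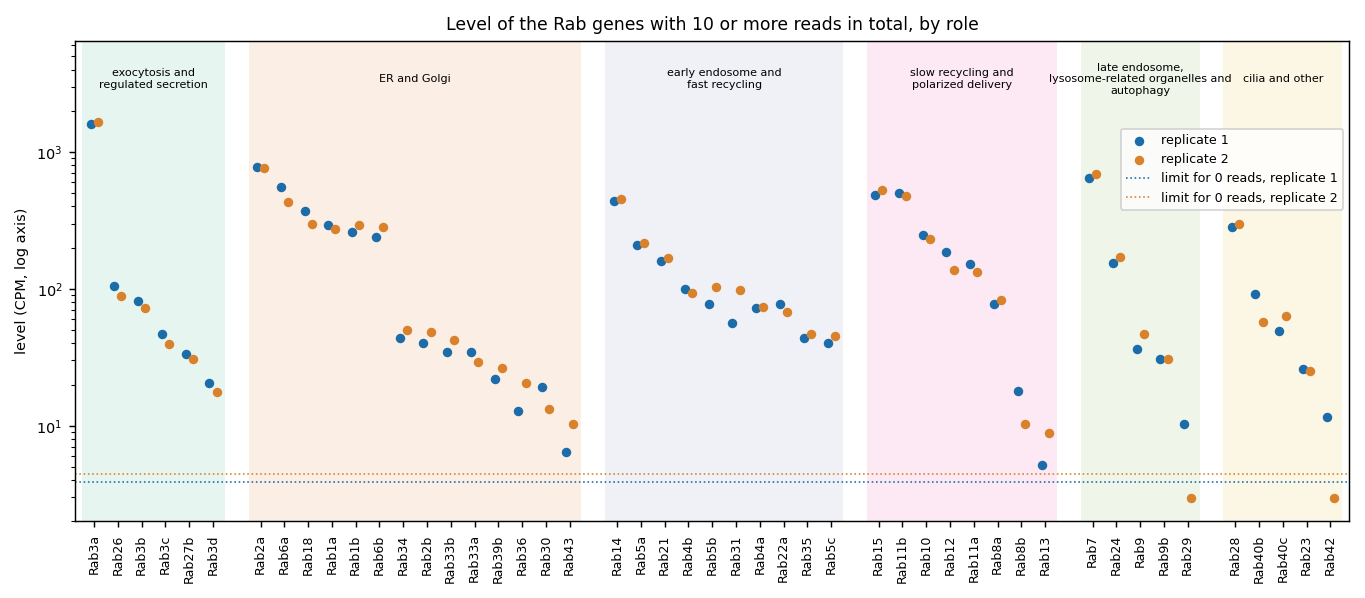
Level in CPM (log axis) of the 48 Rab genes with 10 or more reads in total, grouped by role; each point is 1 library, replicate 1 left of replicate 2, and dotted lines mark the limit for 0 reads. Rab3a, at 1607 and 1664 CPM, stands above all other members, and Rab29 and Rab42 fall under the limit in replicate 2 alone.

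Reads were concentrated on a few members. Rab3a, the Rab of synaptic vesicles, held 18.4% of all Rab reads, and the first 6 members (Rab3a, Rab2a, Rab7, Rab15, Rab6a and Rab11b) held 51.4%. Summed by role, the ER and Golgi members had the most, 2654 ± 98.8 CPM (SD, n = 2 libraries, as for all means here) over 15 members. The exocytosis members summed to 1908 ± 10.9 CPM over 8 members. Members of slow recycling and polarized delivery summed to 1643 ± 43.9 CPM, and those of the early endosome and fast recycling to 1319 ± 61.2 CPM. Members of the late endosome and autophagy summed to 920 ± 48.5 CPM, and the group of cilia and other roles to 454 ± 8.45 CPM. The order of these 6 sums was the same in both libraries.

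Among the exocytosis members, Rab3a had 1245 reads (1607 CPM) in replicate 1 and 1130 reads (1664 CPM) in replicate 2. This placed it 40th by mean level among the 9143 genes with 20 or more reads. Rab26, which resides on synaptic vesicles, had 106 and 88.3 CPM, but it overlaps Traf7 on the same strand (46 and 63 reads), so its count is uncertain. The other Rab3 genes serve regulated secretion as well, and all lay far below Rab3a. Rab3b had 81.3 CPM in replicate 1 and 72.1 CPM in replicate 2. Rab3c had 46.5 and 39.8 CPM, and Rab3d had 20.7 and 17.7 CPM. With multi-exon models alone Rab3c averaged 17.6 CPM and Rab3d 19.6 CPM, and with annotated transcripts alone they averaged 22.1 and 20.7 CPM. Rab27b, which acts in the docking of secretory granules, had 33.6 and 30.9 CPM.

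Rab3a was also the member with the most reads on an unannotated transcript. Its gene lies at chr8:70754679-70758677 on the plus strand of mm10. Rab3a-201, a 5-exon protein-coding transcript, held 751 reads (60.3%) in replicate 1 and 669 reads (59.2%) in replicate 2. A 5-exon model whose first exon ends at an unannotated donor held 325 reads (26.1%) and 307 reads (27.2%). The first intron of Rab3a lies before the coding sequence, which begins at position 70755856. The donor of Rab3a-201 and Rab3a-202 is followed by the intron base 70754864, and the unannotated donor lies 6 nt downstream. The window chr8:70754852-70754881 (GRCm38.p6, plus strand, RefSeq) is shown because it holds both sites, and capitals mark the first 2 bases of the intron at each.
Rab3a donor window: agcttagagaggGTaaggGTgagcgcaacc

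Of the introns that ended at the acceptor before position 70755856, the downstream donor began 328 of 1084 in replicate 1 (30.3%, interval 27.6 to 33.1%) and 313 of 991 in replicate 2 (31.6%, 28.8 to 34.5%). The intervals overlapped. The annotation also places a donor 1 base before the downstream one, in Rab3a-204 and Rab3a-206, where the intron would begin with GG. It had 0 reads in replicate 1 and 0 reads in replicate 2, against 344 and 321 reads at the GT beside it. Both donors lie in the 5′ untranslated region, outside the coding sequence of Rab3a-201.

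Among the ER and Golgi members, Rab2a, which acts between the ER and the Golgi, had 784 CPM in replicate 1 and 764 CPM in replicate 2. It held 95.1% and 94.0% of the reads of the Rab2 pair, and Rab2b had 40.02 and 48.6 CPM. Rab1a and Rab1b, both needed for transport into the Golgi, were close to each other. Rab1a had 293 and 272 CPM, and Rab1b had 262 and 292 CPM. The share of Rab1a in the pair was 52.8% in replicate 1 (interval 48.1 to 57.5%) and 48.3% in replicate 2 (43.3 to 53.3%), so which of them is higher was not detectable at this depth. Rab18, of the ER and lipid droplets, had 372 and 296 CPM. Its log2 ratio of replicate 1 over replicate 2, on CPM + 1, was 0.33 (counting SE 0.13), which did not pass an adjusted p of 0.05 (exact binomial test, adjusted p = 0.241).

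Rab34, Rab33a, Rab33b, Rab39b, Rab30, Rab36 and Rab43 lay below Rab1a and Rab1b in both libraries. Rab34, a Golgi and cilium gene, had 43.9 CPM in replicate 1 and 50.1 CPM in replicate 2. Rab33b, which binds the autophagy protein Atg16l1, had 34.9 and 42.7 CPM, and its Golgi paralogue Rab33a had 34.9 and 29.4 CPM. Rab39b, a neuronal gene whose loss in humans causes intellectual disability, had 21.9 and 26.5 CPM. Rab30 had 19.4 and 13.3 CPM, and Rab36 had 12.9 and 20.6 CPM. With annotated transcripts alone Rab30 averaged 8.15 CPM and Rab36 7.60 CPM. Rab43 had 5 and 7 reads (6.45 and 10.3 CPM) and overlaps Isy1 and Gm45140 on the same strand, so its count is uncertain, and with multi-exon models alone it averaged 5.51 CPM.

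Rab6a and Rab6b, which serve transport back to and within the Golgi, differed in the kind of read that carried their level. Rab6a had 431 reads (556 CPM) in replicate 1 and 292 reads (430.0 CPM) in replicate 2, and Rab6b had 186 reads (240.1 CPM) and 194 reads (286 CPM). On Rab6a, 405 of the 431 reads and 267 of the 292 reads were on models with more than 1 exon. On Rab6b only 17 and 24 reads were. The single-exon models of Rab6b held 169 and 170 reads, and 337 of these 339 reads lay on models within the 4095-nt last exon of Rab6b-201. The full transcript Rab6b-201 held 13 and 18 reads. With multi-exon models alone the level of Rab6b was 33.0 CPM, and the share of Rab6a in the pair was 93.9%, against 65.0% with all reads. The reads of the last exon do not show which exons they were joined to.

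Rab6a has a pair of mutually exclusive exons, both 106 nt long and fully coding. In human cells the corresponding choice gives the isoforms Rab6A and Rab6A′. The exon of Rab6a-201 lies at chr7:100629838-100629943 and that of Rab6a-202 at chr7:100629666-100629771 (mm10, plus strand). They are shown 5′ to 3′ from the GENCODE M21 transcripts, with capitals at the 30 bases that differ; the other 76 bases (71.7%) are identical.
Rab6a-201 exon: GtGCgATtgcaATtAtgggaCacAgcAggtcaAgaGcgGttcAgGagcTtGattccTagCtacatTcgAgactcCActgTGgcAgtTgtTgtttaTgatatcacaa
Rab6a-202 exon: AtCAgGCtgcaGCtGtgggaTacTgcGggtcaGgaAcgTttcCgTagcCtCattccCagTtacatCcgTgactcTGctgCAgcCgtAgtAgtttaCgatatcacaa

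The Rab6a-202 exon was used by 16 of 393 informative reads in replicate 1 (4.07%, interval 2.52 to 6.51%) and 11 of 257 in replicate 2 (4.28%, 2.41 to 7.50%). All the others held the Rab6a-201 exon. The shares in the 2 libraries lay close together, and with under 5% they were outside the range in which exons were tested.

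Among the members of the early endosome and fast recycling, Rab14, which works between the Golgi and endosomes, was highest, with 438 CPM in replicate 1 and 451 CPM in replicate 2. The Rab5 genes drive the fusion of early endosomes. Rab5a had 209 and 215 CPM, Rab5b had 77.5 and 103 CPM, and Rab5c had 40.02 and 45.6 CPM. Rab5a thus held 64.0% of the Rab5 reads in replicate 1 (interval 57.9 to 69.7%) and 59.1% in replicate 2 (52.9 to 65.1%). Rab21, a gene of integrin traffic, had 160.1 and 168 CPM. Rab22a, of endosomal sorting, had 77.5 and 67.7 CPM. Rab35, of a fast route back to the plasma membrane, had 43.9 and 47.1 CPM.

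Rab4b and Rab4a, which return receptors quickly to the surface, had 101 and 92.8 CPM and 72.3 and 73.6 CPM in replicates 1 and 2. Each overlaps a protein-coding gene on the same strand. Egln2 beside Rab4b had 219 and 204 reads and Gm20388 beside Rab4a had 122 and 234 reads, so both Rab4 counts are uncertain. Rab31, of transport from the Golgi to endosomes, had 44 reads (56.8 CPM) in replicate 1 and 67 reads (98.7 CPM) in replicate 2. Its log2 ratio of -0.79 (counting SE 0.28) was the lowest of the tested members and did not pass (exact binomial test, adjusted p = 0.122).

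Rab22a carried a coding cassette exon whose length is no multiple of 3. Leaving it out gives Rab22a-203, which is annotated as a target of nonsense-mediated decay. The exon was included in 51 of 56 informative reads in replicate 1 (91.1%, interval 80.7 to 96.1%) and 35 of 38 in replicate 2 (92.1%, 79.2 to 97.3%). Rab22a-203 itself held 5 and 2 reads.

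Among the members of slow recycling and polarized delivery, Rab15 and Rab11b stood highest. Rab15, a neuronal endosomal Rab, had 485 CPM in replicate 1 and 530.1 CPM in replicate 2. Rab11b, of the recycling endosome, had 502 and 480.0 CPM, and its paralogue Rab11a had 151 and 133 CPM. Rab11b held 76.9% of the reads of the Rab11 pair in replicate 1 (interval 73.0 to 80.3%) and 78.4% in replicate 2 (74.2 to 82.1%).

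Rab8, Rab10 and Rab12 are known substrates of the kinase Lrrk2. Rab10, of polarized delivery to the surface, had 249 CPM in replicate 1 and 231 CPM in replicate 2. Rab8a, of delivery to the surface and the cilium, had 77.5 and 82.5 CPM, and Rab8b had 18.1 and 10.3 CPM. Rab12 had 144 reads (186 CPM) and 93 reads (137 CPM), a log2 ratio of 0.44 (counting SE 0.19) that did not pass (exact binomial test, adjusted p = 0.289). Rab13, a gene of cell junctions, had 4 and 6 reads.

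Among the members of the late endosome and autophagy, Rab7, which directs late endosomes to lysosomes, had 648 CPM in replicate 1 and 695 CPM in replicate 2. It was the third highest member by mean level, and its paralogue Rab7b had 1 and 2 reads. Rab9 and Rab9b, of the route from late endosomes to the Golgi, had 36.1 and 47.1 CPM and 31.0 and 30.9 CPM. Rab29, which can recruit Lrrk2 to membranes, had 8 reads in replicate 1 and 2 reads in replicate 2, the second under the limit for a count of 0.

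Rab24, a Rab linked to autophagy, had 119 reads (154 CPM) in replicate 1 and 116 reads (171 CPM) in replicate 2. Its level was thus close in the libraries, but its transcripts were not. Rab24-201, with 8 exons, held 90 of the 119 reads in replicate 1 (75.6%, interval 67.2 to 82.5%) and 58 of the 116 reads in replicate 2 (50%, 41.0 to 59.0%). A model that keeps 1 intron held 15 reads in replicate 1 and 35 reads in replicate 2. That intron lies at chr13:55320554-55320744 on the minus strand of mm10, within the coding region, and is also unspliced in the annotated retained-intron transcript Rab24-204. It is printed from that transcript, with capitals at its first and last 2 bases.
Rab24 191-nt intron: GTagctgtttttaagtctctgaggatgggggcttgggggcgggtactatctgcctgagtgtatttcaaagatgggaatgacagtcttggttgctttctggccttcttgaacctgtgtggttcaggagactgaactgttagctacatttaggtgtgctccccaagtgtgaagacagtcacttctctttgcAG
Replicate 1 had it unspliced in 24 of 117 informative reads (20.5%, interval 14.2 to 28.7%), and replicate 2 in 47 of 113 (41.6%, 32.9 to 50.8%). These intervals did not overlap, but introns of genes outside the Rab family were not compared in this way.

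The share of the leading transcript was compared by Fisher's exact test in the 38 members with 20 or more reads in each library. Rab24 was the only member that passed (adjusted p = 0.0336), and 2 members, Rab24 and Rab1a, had an unadjusted p under 0.05 (5.26%, against 6.73% of all genes tested). Over all 5961 genes tested, 0.168% passed. The Rab24 call was lost without incomplete splice matches and genomic models (adjusted p = 0.162) and when annotated transcripts alone were counted (adjusted p = 1). Rab24 overlaps Prelid1 on the opposite strand (87 and 75 reads), and the orientation of reads is not given in the sources used here.

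Among the members of cilia and other roles, Rab28, known from photoreceptor cilia, had 281 CPM in replicate 1 and 299 CPM in replicate 2. Rab23, an inhibitor of Hedgehog signalling, had 25.8 and 25.0 CPM. Rab40b and Rab40c, which join a ubiquitin ligase, had 91.7 and 57.4 CPM and 49.1 and 63.3 CPM. Rab40b held 65.1% of the reads of this pair in replicate 1 (interval 55.8 to 73.4%) and 47.6% in replicate 2 (37.1 to 58.2%). The interval of replicate 2 includes 50%, so which of the pair was higher there was not detectable at this depth. Rab42 had 9 reads in replicate 1 and 2 reads in replicate 2, the second under the limit for a count of 0.

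Rab28 had a pair of cassette exons, shown here because both bear on the coding sequence. The 95-nt exon lies at chr5:41626987-41627081 and the 89-nt exon at chr5:41698390-41698478, both on the minus strand of mm10. In Rab28-203 the coding sequence ends inside the 95-nt exon, where capitals mark the stop codon at bases 88 to 90. In Rab28-201, which lacks the exon, it ends in the last exon. The annotated coding sequences are of almost equal length, 660 nt in Rab28-203 and 663 nt in Rab28-201.
Rab28 95-nt exon: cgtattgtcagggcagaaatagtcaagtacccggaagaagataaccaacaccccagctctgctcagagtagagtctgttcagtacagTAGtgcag
Rab28 89-nt exon: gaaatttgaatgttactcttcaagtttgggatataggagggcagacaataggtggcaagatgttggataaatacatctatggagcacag

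Replicate 1 included the 95-nt exon in 53 of 213 informative reads (24.9%, interval 19.6 to 31.1%), and replicate 2 in 60 of 194 (30.9%, 24.8 to 37.7%). The 89-nt exon was included in 193 of 215 reads (89.8%, 84.99 to 93.1%) and 188 of 202 reads (93.1%, 88.7 to 95.8%). Rab28-201 held 139 and 121 reads and Rab28-203 held 48 and 56 reads. Both transcripts were thus present in both libraries, with overlapping intervals for the exon between them.

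Inclusion was tested by Fisher's exact test for internal exons with 20 or more informative reads and 5 to 95% inclusion. Of 3 such exons in members, those of Rab28 and Rab22a, 0 passed and 0 had an unadjusted p under 0.05. Over all genes 0 of 3079 exons or exon pairs passed (0%), and 80 had an unadjusted p under 0.05. With replicate 2 alone 6 exons of members met the criteria, in Rab22a, Rab26, Rab28, Rab40b and Rab7, and with replicate 1 alone the number was 3.

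**Figure D2:**
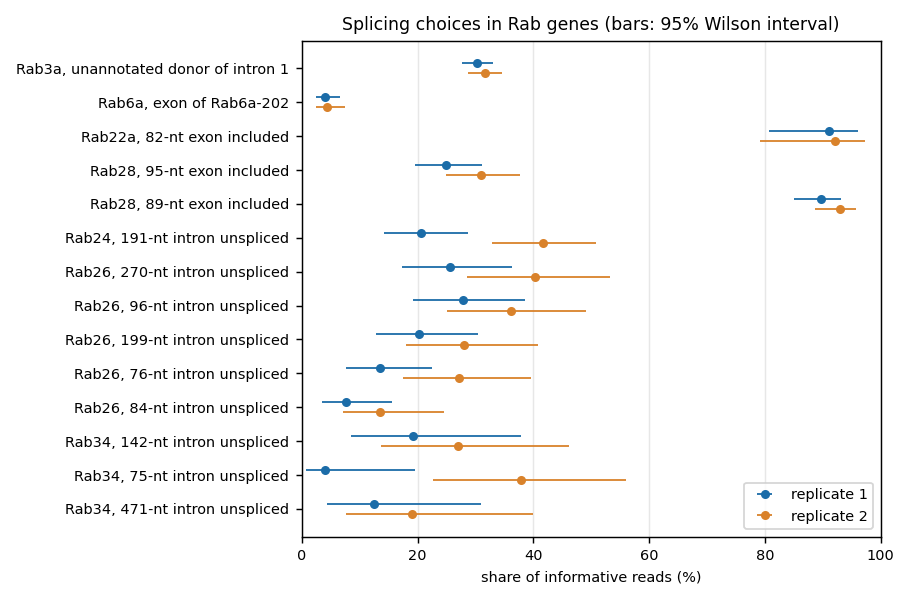
Share of informative reads (%) for splicing choices in Rab genes, with 95% Wilson intervals; each row has replicate 1 above replicate 2. The Rab3a donor, the Rab6a exon and the Rab28 and Rab22a exons lie close in both libraries, while the 9 introns unspliced in 10% or more of the reads of both libraries together, in Rab24, Rab26 and Rab34, have the higher share in replicate 2.

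Few introns of members were seen unspliced. In the leading annotated transcripts of 41 members, 216 introns had 20 or more informative reads. The median share of unspliced reads was 0%, and 164 introns had 0 unspliced reads. An intron could count as unspliced only where 1 exon covered all of it. Introns far longer than the median model of 2159 nt, such as the 145077-nt intron of Rab27b, could hardly count. Their 0% therefore does not show complete removal. Only 9 introns, in Rab24, Rab26 and Rab34, were unspliced in 10% or more of the reads of both libraries together, and in all 9 the share was higher in replicate 2. These 9 introns were 75 to 471 nt long. The count is over introns that share reads within a gene, and it was not tested. Introns of other genes were not counted, so whether the higher share in replicate 2 is particular to these genes was not tested. In other protein-coding genes, annotated transcripts held 71.0% of the reads in replicate 1 and 68.1% in replicate 2. Genomic models there held 6.54 and 7.66%. The 270-nt intron of Rab26 was unspliced in 20 of 78 reads in replicate 1 (25.6%) and 23 of 57 reads in replicate 2 (40.4%). The 75-nt intron of Rab34 was unspliced in 1 of 25 reads and 11 of 29 reads (4.00% and 37.9%).

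**Figure D3:**
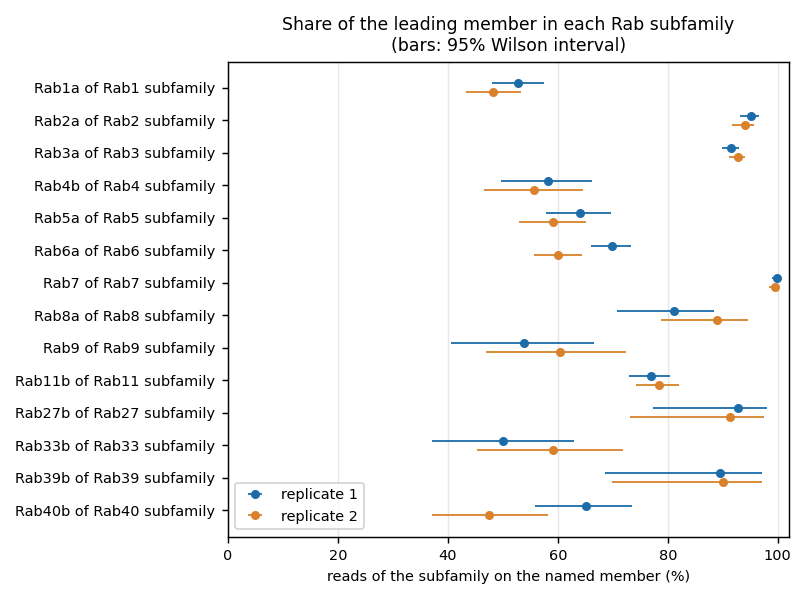
Share (%) of the reads of each Rab subfamily on its leading member, with 95% Wilson intervals, replicate 1 above replicate 2. The points of Rab7, Rab2a, Rab3a and Rab27b lie above 90% in both libraries, with wide bars for Rab27b, and Rab1a and Rab33b lie near the middle.

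In 7 of 14 Rab subfamilies with at least 2 members with reads, 1 gene held over 75% of the reads in both libraries. The intervals reached under 75% in both libraries for Rab11b and Rab39b (lower bounds 68.6 and 69.9% for Rab39b). They did so in 1 library for Rab8a (70.7%, replicate 1) and Rab27b (73.2%, replicate 2). Rab7 had the highest such share, 99.8% and 99.6% in replicates 1 and 2. Rab33b, at 50% and 59.2%, shared its subfamily almost evenly with Rab33a, as Rab1a did with Rab1b. Rab27b held 92.9 and 91.3%, Rab39b 89.5 and 90%, and Rab8a 81.1 and 88.9% of their pairs. Rab4b held 58.2 and 55.8% and Rab9 53.8 and 60.4%. The Wilson intervals of the libraries overlapped for all leading members but Rab6a, at 69.9% in replicate 1 (66.1 to 73.3%) and 60.1% in replicate 2 (55.7 to 64.3%). Such overlap was not counted for other gene families, so this count cannot be weighed against them. In the Rab6 pair, 339 of the 380 Rab6b reads were on single-exon models. Reads that near-identical paralogues share could be split between them in the authors' counting.

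Between the libraries, Rab6a was the only member whose level passed the test of a difference. It had 431 reads (556 CPM) in replicate 1 and 292 reads (430.0 CPM) in replicate 2, a log2 ratio of 0.37 (counting SE 0.11; exact binomial test, two-sided, adjusted p = 0.0391). So 1 of 44 tested members passed, while 1.99% of all 9143 genes tested passed. The ratio stayed close under other choices of reads, and the call did not hold under each of them. The log2 ratio was 0.39 with multi-exon models alone (adjusted p = 0.0564) and 0.36 with annotated transcripts alone (adjusted p = 0.136), and without a filter on low counts the same ratio of 0.37 had an adjusted p of 0.0713. At an unadjusted p under 0.05 there were 5 members (11.4%, against 11.8% of all genes tested), Rab6a, Rab18, Rab12 and Rab40b with ratios above 0 and Rab31 with a ratio below 0. Rab40b had a log2 ratio of 0.67 (counting SE 0.29). Of the 44 members, 21 had a ratio above 0 and 23 below. The median log2 ratio was -0.03 in the members and -0.03 over all genes tested, and the members ranged from -0.79 for Rab31 to 0.75 for Rab8b.

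**Figure D4:**
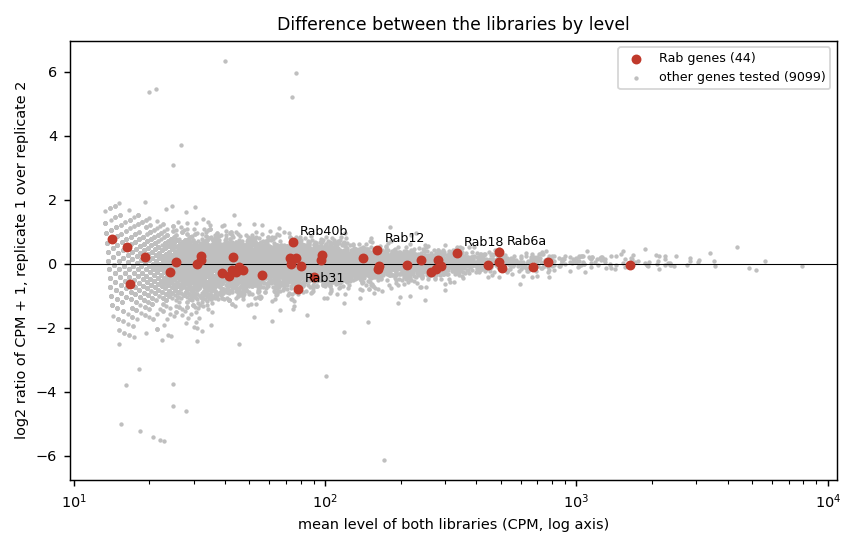
Log2 ratio of CPM + 1, replicate 1 over replicate 2, against the mean level in CPM (log axis) for 44 Rab genes and the 9099 other genes tested; the 5 named members had an unadjusted p under 0.05. Rab genes lie between -0.79 and 0.75.

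Rab reads were mostly on annotated transcripts. These held 81.1% of the Rab reads in replicate 1 and 78.2% in replicate 2, against 71.0 and 68.1% of the reads of other protein-coding genes. Models with an unannotated splice site held 6.51 and 7.25% of the Rab reads, against 3.90 and 4.40% in the other genes. Most of these reads belonged to Rab3a, which held 339 of 450 in replicate 1 and 315 of 437 in replicate 2. Without Rab3a the share in the Rab genes was 1.96 and 2.49%. Incomplete splice matches, which cover part of an annotated transcript, held 6.73 and 6.69% against 11.7 and 12.6%. New combinations of known sites held 2.37 and 3.19% against 6.77 and 7.20%. Genomic models held 3.29 and 4.73% against 6.54 and 7.66%. Rab3a had 91 and 26 reads on incomplete splice matches and 0 and 55 on genomic models. Without Rab3a, incomplete splice matches held 374 of 5664 Rab reads in replicate 1 and 377 of 4898 in replicate 2, a higher share in replicate 2. Reads of a gene are not independent and these shares were not tested.

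Of the 35 members with 50 or more reads, 25 had over 75% of reads on annotated transcripts. Rab6b (8.16%) and Rab3c (34.9%) had under 50%. These 2 were also the only ones of 38 members tested in which the pool of single-exon models, and not an annotated transcript, held the most reads. For Rab3c, single-exon models held 26 of 36 reads in replicate 1 and 15 of 27 in replicate 2, and 40 of these 41 reads lay within its 7816-nt last exon. Over all members, single-exon models held 1058 reads. Of these, 84.1% lay within the last exon of the leading annotated transcript and 97.0% overlapped it. All 121 such reads of Rab3a overlapped the last exon, and 0 lay within it. The same single-exon reads were not always given the same class: those of Rab3a counted as genomic were 0 in replicate 1 and 55 in replicate 2, although single-exon reads numbered 66 and 55.

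**Figure D5:**
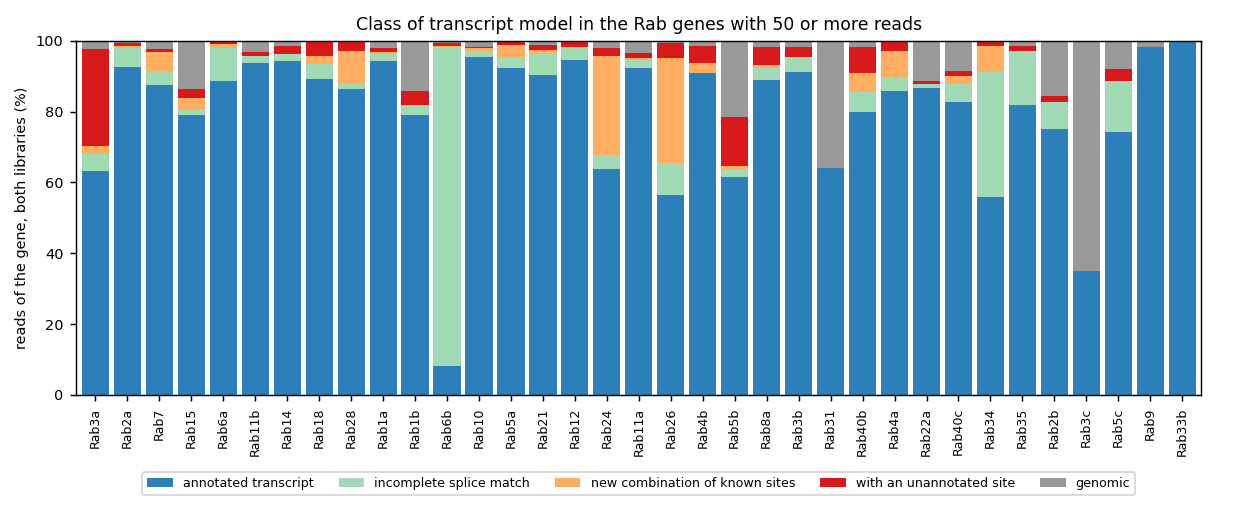
Share of reads (%, both libraries) by class of transcript model for the 35 Rab genes with 50 or more reads, ordered by reads. Rab3a shows the large part with an unannotated site, Rab24 and Rab26 the parts with new combinations of known sites, and Rab6b and Rab3c the smallest annotated parts.

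The leading transcript held a median 86.3% of the reads of a member in replicate 1 and 83.3% in replicate 2, against 67.1 and 65.0% over all genes tested. At least 2 transcripts with 10% or more of the reads were found in 13 of the 35 members. In Rab15, Rab1b, Rab22a, Rab2b, Rab31, Rab3c and Rab5c the pool of single-exon reads was 1 of the 2. Rab5b had 3 forms: Rab5b-201 with 41 and 39 reads, single-exon models with 11 and 17 reads, and a model with an unannotated donor 157 nt from the annotated one with 5 and 10 reads. Rab40c had a pair of annotated protein-coding transcripts with coding sequences of the same 843 nt, Rab40c-201 with 22 and 21 reads and Rab40c-207 with 10 and 14 reads. Rab34 had Rab34-201 with 13 and 6 reads, Rab34-203 with 7 and 11 reads, which differ in their first exon, and a partial 3-exon model with 6 and 8 reads. Rab24, Rab28 and Rab3a, described above, make up the rest. Smaller site changes were seen in Rab27b, with a donor 38 nt from the main one in 8 of 25 and 3 of 19 reads, and in Rab4a, with an annotated acceptor 38 nt away in 5 of 56 and 4 of 48 reads.

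RNA of most genes on the lists of Rab regulators and effectors was detected. Of 126 listed pathway symbols, 125 matched an annotated gene, 124 had reads and 105 had 10 or more. Gdi2, a GDP dissociation inhibitor, had 231 CPM in replicate 1 and 206 CPM in replicate 2. Rabac1, which helps to deliver Rabs to membranes, had 189.8 and 184 CPM, and Arl6ip5 had 208 and 143 CPM. Of the prenylation genes, Rabggtb and Rabggta, the subunits of the transferase, averaged 78.8 ± 7.32 and 58.0 ± 11.2 CPM. The escort protein gene Chm averaged 25.9 ± 9.21 CPM, and Chml had 6 reads in replicate 1 and 0 in replicate 2.

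Among 31 genes listed as exchange factors, Dennd5a, which binds Rab6 and activates Rab39, was highest, with 186 CPM in replicate 1 and 233 CPM in replicate 2. Dennd6b averaged 111 ± 24.9 CPM and Madd, the exchange factor of Rab3, 89.7 ± 20.98 CPM. The list also held Rgl1, known for activating Ral GTPases, at 95.5 ± 1.83 CPM. Among 34 GTPase-activating proteins, Tbc1d9b averaged 259 ± 6.10 CPM, Sgsm3 114 ± 0.882 CPM, Tbc1d17 112 ± 12.9 CPM and Evi5l 112 ± 19.1 CPM. Summed, the listed exchange factors, Rgl1 included, had 1149 and 1381 CPM and the activating proteins 1592 and 1727 CPM. Among 42 annotated effectors, Osbpl1a, which binds Rab7, had 394 and 396 CPM. Rph3a, the synaptic effector of Rab3a, had 223 and 293 CPM, Vps41 of the lysosomal tether had 223 and 187 CPM, and Rilpl1, which binds phosphorylated Rabs, had 156 and 137 CPM. The genes of Rab phosphorylation were low: the phosphatases Ppm1h and Ppm1m averaged 32.8 ± 9.85 and 20.8 ± 3.88 CPM, and the kinases Lrrk2 and Lrrk1 18.3 ± 5.11 and 4.61 ± 4.44 CPM.

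Of the 90 pathway genes tested between the libraries, 0 passed in either direction by the exact binomial test, while 1.99% of all genes tested passed. At an unadjusted p under 0.05 there were 10 (11.1%, against 11.8% of all genes tested). With size factors from DESeq2 1 gene passed, Arl6ip5. Among the 10 were Arl6ip5, Yipf3, Rph3a, Kif1b, Rab11fip3, Vps39, Dennd6b, Ccz1 and Rin2. The median log2 ratio was 0.10 for the GDI and delivery list, -0.38 for the exchange factors, -0.23 for the activating proteins and -0.04 for the effectors, against -0.03 over all genes tested.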

How the data were processed

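The authors deposited, per library, whole-number read counts of transcript models and the exons of these models. The deposited notes name mm10 and GENCODE M21 as the assembly and annotation behind the counts, and the annotation files name TALON as their source. Platform, aligner, read correction, filters and read orientation were not given in the sources used here. Models on spike-in RNAs, 1.58% and 1.33% of reads in replicates 1 and 2, were left out.

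Gene counts were summed over all models of an annotated gene and scaled to CPM. A two-sided exact binomial test compared genes with 20 or more reads over both libraries, and Fisher's exact test compared transcript and exon shares, each with Benjamini-Hochberg adjustment over all genes and a threshold of 0.05. Log2 ratios are on CPM + 1, and their SE is from counts alone. Unannotated models were matched between libraries by their introns, and single-exon models of a gene were pooled. An intron was unspliced where an exon covered it and 10 nt on each side. Exons of all 92 annotated Rab transcripts with reads were the same in the GENCODE M21 reference, the source of the printed exon sequences. All printed bases are those of a reference and not of the reads. Reads were not assigned to either parental strain of the mice, so differences between the strains at these sites were not examined. The computations used Python 3.11.15, pandas 2.3.3 and scipy 1.17.1, with scaling alternatives from edgeR 4.0.16 and DESeq2 1.42.0 in R 4.3.3, and the tests were tested on simulated data.

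Values per library are given for each member with 10 or more reads, transcript shares for members with 50 or more reads and at least 2 transcripts at 10% or more, every called member and exon, and the 4 highest genes of each pathway list. Some items that these rules select are not reported here. The roles, members and lists were chosen with earlier results of these data known. Genes with an unadjusted p under 0.05, Rab8b, Rab26 and Rab34 introns, splice sites and intron values were named after their values were seen.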

Additional observations from a re-analysis of the deposited data

How the results depend on the processing

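Leaving out a replicate gave a Rab share of 0.888 to 0.892% and 42 to 44 detected members, and 3 to 6 alternative exons in members. The Rab share was 1.02% with annotated transcripts alone and 0.940% with multi-exon models alone. The share of Rab reads on annotated transcripts, 79.6% in the mean, was 86.7% among multi-exon models and 82.9% without genomic models. Of members called between the libraries there were 0 without a filter on low counts, 0 with annotated transcripts and 0 with multi-exon models, against 1, Rab6a, otherwise (adjusted p 0.00359 to 0.136 over its alternatives). Of pathway genes 1 was called with DESeq2 size factors. For the leading transcript 0 members were called with annotated transcripts alone and 0 without incomplete splice matches and genomic models. With annotated transcripts alone the Rab24 difference between replicate 1 and replicate 2 turned to -2.17 percentage points (97.8 and 100%), since that choice leaves out the model that keeps the intron, and it was 22.3 points without incomplete splice matches and genomic models. Of the 48 member levels, 4 moved over 1.5 times with annotated transcripts alone (Rab36 7.60, Rab3c 22.1, Rab30 8.15 and Rab6b 31.3 CPM) and 3 with multi-exon models (Rab3c 17.6, Rab43 5.51 and Rab6b 33.0 CPM). Rab29 and Rab42 moved as much when a replicate was left out (2.94 to 10.3 and 2.94 to 11.6 CPM). Relative to all mouse reads 0 did. No paired analysis was possible because the libraries form 1 group. Depth limits the statements on members under 50 reads.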

Other observations

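Loci on the strand opposite 37 members held 225 reads in replicate 1 and 331 reads in replicate 2, of which spliced models took 3 and 7. Opposite Rab31 there were 46 and 49 reads, beside 44 and 67 reads of Rab31 itself, and opposite Rab30 there were 37 and 33 reads, beside 15 and 9 reads of Rab30. Opposite Rab28 there were 18 and 34 reads, and opposite Rab1a 9 and 33 reads. The orientation of reads is not given in the sources used here, so reads of a gene and of its antisense partner cannot be told apart with certainty.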
